A study of Caenorhabditis elegans with 2 samples.

Results

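The genes described here are the protein-coding genes of Caenorhabditis elegans whose names begin with vha- or vps-. The first prefix names subunits of the vacuolar ATPase, and the second names relatives of the yeast vacuolar protein sorting genes. They were taken by name from the gene models of assembly WBcel235 (ce11), which gave 51 genes of 19985 protein-coding genes, 20 of them vha- and 31 vps-. For each gene, the ChIP-seq peaks of the W03F9.2 protein were sought in its promoter window, which begins 1000 bp before the annotated start of the gene and ends 200 bp after it. A gene had a summit when the highest point of a peak fell in that window. The genes were taken by name and not by a measured value, although earlier results of these data were known.

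ChIP-seq sequences the DNA that comes down with an immunoprecipitated protein. Here that protein was W03F9.2 carrying an eGFP tag, in whole worms of strain OP215, which has the unc-119(ed3) allele on chromosome III and the transgene wgIs215. The worms were L4 larvae and young adults, with both sexes pooled, in 2 biological replicates of 1 group. All libraries share the allele and the transgene, no untagged strain is among the samples, and a control experiment that the labels point to was not analysed here. The strain is a single integrated line. The labels do not say which promoter drives the tagged protein. They name eGFP in one field and W03F9.2 as the antibody in another. Whole animals mix all tissues, so a peak present in few cells and a weak peak in many cannot be told apart.

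The vacuolar ATPase is a rotary proton pump that acidifies lysosomes, endosomes and some extracellular spaces. Its V1 part lies in the cytoplasm and hydrolyses ATP, and its V0 part lies in the membrane and carries the protons. In C. elegans it works in every tissue and is prominent in the excretory cell, the hypodermis and the intestine. The vps- genes encode machines that move membrane and cargo towards the same compartments. ESCRT complexes sort ubiquitinated cargo into vesicles inside endosomes, HOPS and CORVET tether membranes before fusion, retromer and GARP return cargo to the Golgi, and a class III PI3-kinase marks the membranes with a lipid.

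Peaks came from the optimal set, 2409 peaks that the authors kept for reproducible ranking, and from the 30000 entries of the list pooled from both replicates, which also holds weak background entries. The optimal set consisted of the 2409 pooled entries of highest signal. Peak signal is the authors' own value in the units of their caller, and ranks count from 1 at the highest signal. Its lowest value in the optimal set was 48.5. Each replicate also has a list of 30000 entries, whose signals were scaled separately, so the replicates are compared by rank as well as by signal, each through the highest entry in the window. Read depth is unknown. In 87.9% of the optimal set the deposited summit is simply the midpoint of the peak, so positions are approximate.

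Sequence under the summits introduces the members with the strongest signals. The summit base with 50 bases on either side is given for the 4 vha- genes of highest signal, read 5′ to 3′ on the strand of the gene from the RefSeq copy of assembly WBcel235. Capitals mark matches on either strand to 3 sets of letters. They are GACGCA, then the shifted form ACGCAG and the partly overlapping AGAGAC. These letters and were chosen after the data were seen, because they were frequent at the summits of the whole optimal set.
vha-8, chrIV:6790581-6790681, plus strand: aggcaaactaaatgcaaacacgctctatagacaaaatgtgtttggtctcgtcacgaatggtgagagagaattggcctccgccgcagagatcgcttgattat
vha-1, chrIII:9780769-9780869, plus strand: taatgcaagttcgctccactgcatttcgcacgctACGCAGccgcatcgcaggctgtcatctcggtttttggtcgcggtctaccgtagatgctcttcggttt
vha-12, chrX:4190703-4190803, plus strand: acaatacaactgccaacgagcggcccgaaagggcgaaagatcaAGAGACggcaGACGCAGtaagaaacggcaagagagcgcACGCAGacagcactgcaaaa
vha-15, chrX:2237559-2237659, plus strand: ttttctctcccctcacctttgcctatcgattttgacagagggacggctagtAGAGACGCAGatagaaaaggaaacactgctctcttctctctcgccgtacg

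The windows of vps-32.1 and vps-60, the vps- genes of highest signal, are shown next, with vps-2 for its unusual base composition and vps-37 for a run of letters that it shares with vha-15.
vps-32.1, chrII:6589014-6589114, plus strand: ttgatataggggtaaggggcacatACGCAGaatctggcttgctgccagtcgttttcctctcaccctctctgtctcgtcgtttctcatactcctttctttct
vps-60, chrV:8606409-8606509, minus strand: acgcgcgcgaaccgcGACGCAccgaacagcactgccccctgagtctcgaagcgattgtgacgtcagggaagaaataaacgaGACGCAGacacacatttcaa
vps-2, chrII:12768500-12768600, minus strand: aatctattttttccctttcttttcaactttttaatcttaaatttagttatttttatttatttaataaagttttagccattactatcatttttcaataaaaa
vps-37, chrV:5592480-5592580, plus strand: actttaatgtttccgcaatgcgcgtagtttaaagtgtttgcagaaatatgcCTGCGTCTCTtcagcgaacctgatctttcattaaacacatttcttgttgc

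The vha-12, vha-15 and vps-37 windows held all 3 sets of letters and those of vha-8 and vps-2 held none. The run AGAGACGCAG in the vha-15 window occurred on the other strand in the window of vps-37, an ESCRT-I gene. Of the 2389 nuclear summits of the optimal set, 5.44% had this run in such a window, against 0.335% of flanks taken from 200 to 250 bp on either side. Among the 23 summits at vha- and vps- genes, 12 (52.2%) had at least 1 of the 3 sets, 6 of 10 at vha- genes and 6 of 13 at vps- genes. The same holds for 29.97% of all nuclear summits and 7.24% of their flanks. The windows were also searched for GAGAGA on both strands, a sequence that overlaps AGAGAC. It was in 5 of 10 vha- windows and 1 of 13 vps- windows, beside 21.7% of all nuclear summits. The E-box CACGTG, the letters read by bHLH factors such as the lysosomal regulator HLH-30, was in 0 of the 23 windows, beside 4.10% of all nuclear summits. TGATAA or its complement TTATCA, read by intestinal GATA factors, was in 1 of the 23, beside 7.62%. TTTCCC or its complement GGGAAA was in 2 of the 23, beside 9.42%. These matches describe letters and not sites of binding.

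At 19 of the 23 summits the window was richer in G and C than its own flanks, and at vha-17, vps-2, vps-25 and vps-37 it was poorer. That count was not made over all nuclear summits, but their median was also higher than that of their flanks. The median GC content was 50.5% at the 10 vha- summits and 43.6% at the 13 vps- summits, beside 44.6% over all nuclear summits. The flanks of the member summits had a median of 34.3%, the same as the flanks of all nuclear summits. The vps-2 window had the lowest of the 23 with 15.8%, and 3 of the 2389 nuclear summits had less.

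Of the 51 genes, 23 (45.1%, exact 95% interval 31.1 to 59.7) had an optimal-set summit in the promoter window. Over all protein-coding genes the share was 11.7%. The vha- genes had 10 of 20 (50%, interval 27.2 to 72.8) and the vps- genes 13 of 31 (41.9%, interval 24.5 to 60.9). Each of the 23 genes had 1 summit, at 23 different peaks. Counting any entry of the pooled list, 44 of the 51 genes (86.3%) had a summit, beside 40.1% of all protein-coding genes. These 44 are the 23 genes above and 21 with a weaker entry. Among the genes with such an entry, 52.3% of members and 29.1% of all genes had a summit in the optimal set. Intervals cover counting error over genes. No test was made of these shares, since genes are not replicates and earlier results of these data were known when the genes were chosen.

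The signals of the 23 genes ranged from 54.9 at vha-10 to 179 at vps-32.1, with a median of 85.3. Over the 2331 protein-coding genes with a summit the median was 80.2. The members lay between ranks 120 and 1958 of the 2409 peaks. In a stricter set of the 1204 strongest peaks 14 members had a summit, beside 7.11% of all protein-coding genes. The gene just below the lower limit of the set was vps-33.1 with a pooled signal of 46.9 at rank 2542, and vps-20 followed with 44.6 at rank 2743.

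**Figure D1:**
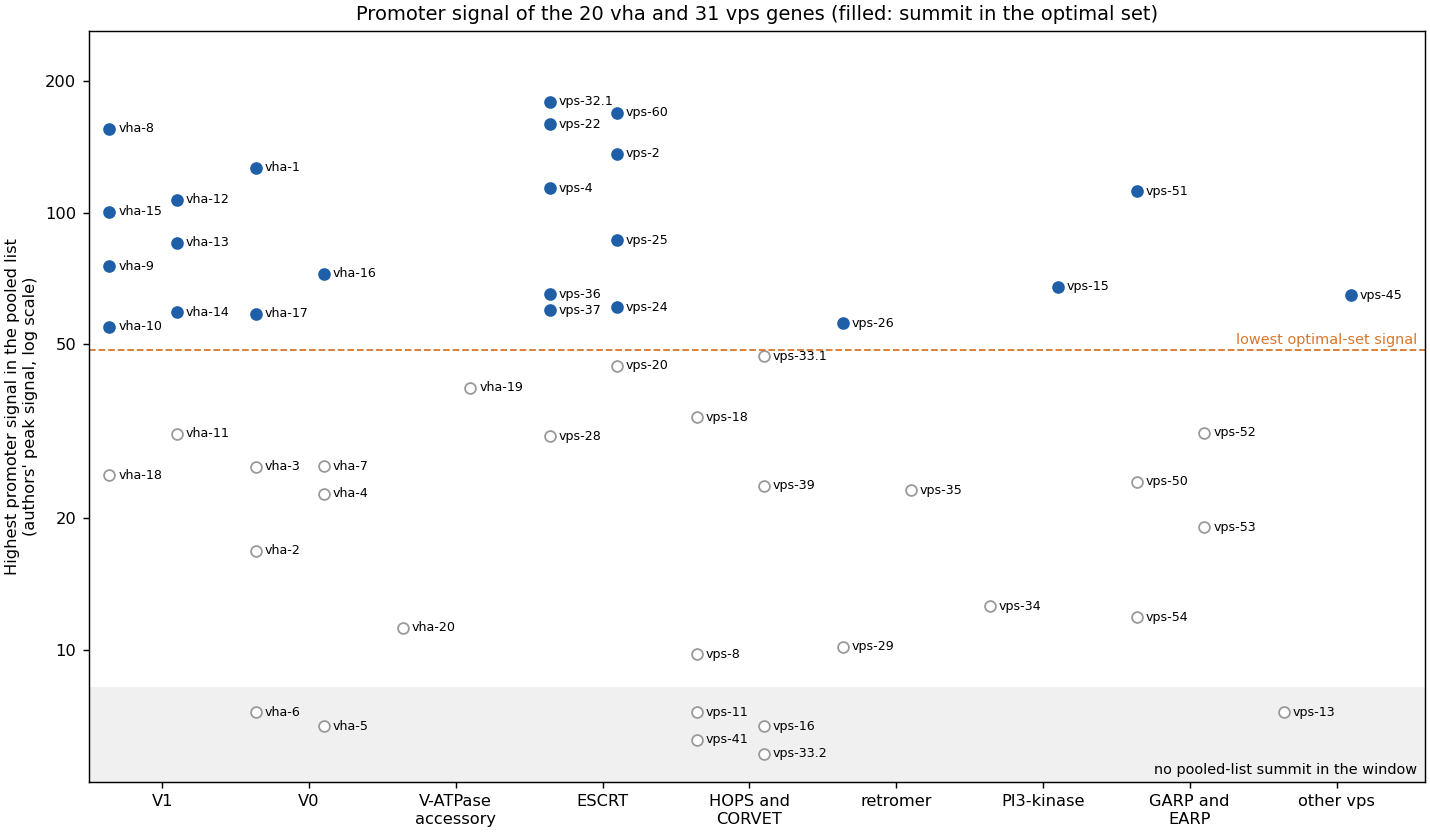
Each point is 1 gene, placed by complex, with the highest signal of a pooled-list summit in its promoter window on a log axis. Filled points have a summit in the optimal set. The V1 and ESCRT genes mostly lie above the dashed line at 48.5, and no HOPS or CORVET gene does. The 7 genes in the grey band had no entry.

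Counted by gene, the V1 subunits had more summits than the V0 subunits. The V0 genes include several copies of subunits a and c, of which only vha-1 had a summit. Among the V1 genes only H has copies, so these are not counts of subunit types. In V1, 7 of 9 genes had an optimal-set summit (77.8%, interval 39.99 to 97.2), and in V0 3 of 9 had one (33.3%, interval 7.49 to 70.1). These intervals overlap widely, and the share over all protein-coding genes was 11.7%. Genes are not replicates, so the intervals are no test against that share. In windows from 2000 bp before to 500 bp after the start, V0 had 5 of 9 and V1 still 7 of 9, beside 14.7% of all protein-coding genes. The added V0 genes were vha-4 and vha-2, the latter through the summit already counted for vha-1. Neither accessory subunit gene had a summit in the optimal set.

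vha-8, which encodes the E subunit of the peripheral stalk, had the highest signal of all vha- genes. Its peak on chromosome IV, 6790456 to 6790805, had a signal of 156 in the pooled list, 50.4 in replicate 1 and 104 in replicate 2. It ranked 353 and 155 in the replicate lists. The summit lay at -443 bp from the start of vha-8, where negative positions are upstream. It lay at -143 from the start of C17H12.2 on the other strand, so it is nearer to that gene.

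vha-12 encodes the B subunit, which with the A subunit forms the ATP-hydrolysing head. Its peak on chromosome X, 4190578 to 4190927, had a signal of 107, with 50.99 in replicate 1 and 57.1 in replicate 2, and its summit at -341. The A subunit gene vha-13 had a signal of 85.3, with 34.6 and 56.5 in the replicates, at -561. That summit falls within an exon of cept-2, the gene that ends 226 bp before vha-13 starts. The head thus had a summit at both of its subunit types, in neither case shared with another promoter window.

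vha-15, for the regulatory H subunit, had a signal of 100.6 on chromosome X, 2237434 to 2237783, at -302. It was among the few members stronger in replicate 1 (57.4) than in replicate 2 (44.2). The F subunit gene vha-9 had a signal of 75.5 at -200, and the replicates gave 30.3 and 46.5. The D subunit gene vha-14, for part of the rotor, had 59.3 at -172, with 25.5 and 44.3 in the replicates. The G subunit gene vha-10 was the weakest of the 23 with 54.9 at -459, in an intron of trpp-8, and its replicate signals were 18.6 and 37.9. The remaining V1 genes, vha-11 for subunit C and vha-18 for a further H subunit, had pooled entries of 31.2 and 25.1, below the optimal set.

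Among V0 genes the summits were at vha-1, vha-16 and vha-17. vha-1 encodes a c subunit of the proton-carrying ring and had a signal of 127 on chromosome III, 9780644 to 9780993. The replicates gave 43.8 and 79.3, at ranks 503 and 314. Its summit lay at -435 and is shared with sqv-3, a glycosyltransferase gene on the other strand, at -465 from its start. vha-16, for the d subunit that joins the ring to the central stalk, had 72.5 at -205, with 39.98 in replicate 1 and 30.8 in replicate 2. The e subunit gene vha-17 had 58.7 at -520, with 35.9 in replicate 1 and 39.999 in replicate 2. The replicate 1 entry lay at -357, away from the pooled summit, and the replicate 2 entry at -521. The pooled summit is shared with F49C12.12, whose start is nearer at -192. The c'' subunit gene vha-4 had a pooled entry of 22.8. The accessory subunit gene vha-19, related to mammalian ATP6AP1, had 39.8, and vha-20, related to ATP6AP2, had 11.2.

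Copies of duplicated subunits differed in signal, and in each case where a summit was found 1 copy had it. The a subunit of V0 has 4 genes. unc-32, the copy used in neurons and many other tissues and named outside the vha- series, had a pooled entry of 34.2 at rank 4191. vha-5 of the hypodermis and excretory cell and vha-6 of the intestine had no entry in the window in the pooled list or in either replicate list. vha-7, a further copy, had 26.3 in the pooled list, 21.0 in replicate 2 and no entry in replicate 1. The a subunit was thus without an optimal-set summit at the broadly used copy as well as at the tissue-restricted copies. The nearest optimal-set summits to vha-5 and vha-6 lay at -14201 and -14762.

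The c subunit has 3 copies. The annotated coding sequences of vha-2 and vha-3 encode identical proteins of 161 residues, and each is 62.7% identical to VHA-1. vha-1 had the summit described above, vha-2 a pooled entry of 16.9 and vha-3 one of 26.2. vha-2 starts 400 bp after the end of vha-1 on the same strand. The vha-1 summit is the nearest of the optimal set to vha-2 as well, at -1345 and outside its window. For the H subunit, vha-15 had 100.6 and vha-18 had 25.1. In replicate 1 they had 57.4 and 20.9, and in replicate 2 44.2 and 11.7, so vha-15 was higher in both. The proteins are 43.2% identical. For the B subunit, vha-12 had 107 and spe-5, a copy needed in the sperm line, had 15.6, although their proteins are 82.7% identical. vps-33.1 and vps-33.2 had 46.9 and no entry. Their proteins are 19.4% identical.

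**Figure D2:**
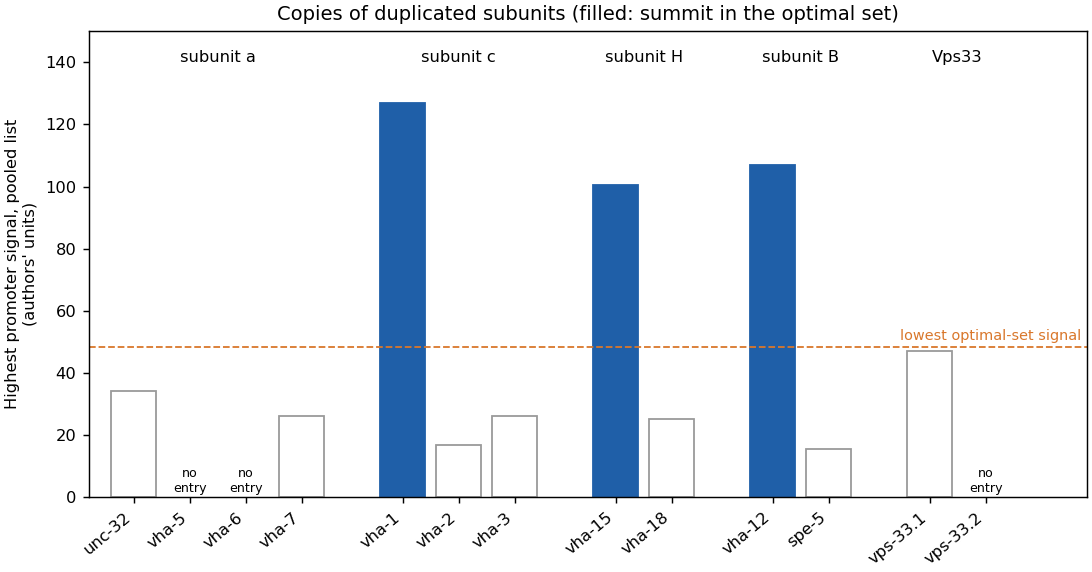
Bars give the highest promoter signal in the pooled list, in the authors' units, for the copies of 4 vacuolar ATPase subunits and for the relatives vps-33.1 and vps-33.2. Filled bars are in the optimal set. For c, H and B, 1 copy exceeds 100 and the others stay between 15.6 and 26.2, while no copy of a reaches 48.5.

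Among the vps- genes, ESCRT genes held most of the summits. Of the 11 ESCRT genes, counting vps-4, 9 had an optimal-set summit (81.8%, interval 48.2 to 97.7). The other 20 vps- genes had 4 (20%, interval 5.73 to 43.7), beside 11.7% of all protein-coding genes. The ESCRT genes with a summit had a median signal of 114. This grouping of vps- genes was chosen after the data were seen. It leaves out ESCRT and associated genes with other names, of which 3 of 8 had a summit. With the nearest start alone 6 of the 11 had a summit, beside 8.17% of all protein-coding genes. With replicate 1 alone it was also 6, beside 10.9%.

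ESCRT-III forms the filaments that pinch vesicles into the endosome. Of its 5 genes with a vps- name, 4 had a summit, beside 11.7% of all protein-coding genes. vps-32.1, for the main filament subunit, had the highest signal of all members. Its peak on chromosome II, 6588973 to 6589138, had 179 in the pooled list, 80.1 in replicate 1 and 105 in replicate 2, at ranks 90 and 151. The summit lay at -644, nearer to icd-1 at -409, a gene of the nascent polypeptide-associated complex. It falls inside the noncoding genes C56C10.14 and C56C10.15. vps-60 had 169 at -331 on chromosome V, 8606389 to 8606547, with 55.8 and 109.5 in the replicates, and no other promoter window held its summit. vps-2 had 136 at -333 on chromosome II, 12768432 to 12768605, with 62.5 and 67.2, and shares it with tiar-2, an RNA-binding protein gene, at -136. vps-24 had 60.8 at -45 and differed most between the replicates among these 4, with 16.1 and 51.9. Its summit also lies in the windows of eif-1, a translation initiation factor gene, at -373 and of pigb-1 at -876. vps-20 was the one of these 5 below the set, with 44.6 in the pooled list, 12.6 in replicate 1 and 37.6 in replicate 2. The gene of the AAA ATPase that takes the filaments apart, vps-4, had 114 at -261, with 21.3 in replicate 1 and 84.3 in replicate 2. A further optimal-set peak with a signal of 53.2 lay inside vps-4, 4699 bp downstream of its start.

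All 3 ESCRT-II genes had a summit. vps-22 had 159 on chromosome III, 4963020 to 4963191, with 68.2 and 89.8 in the replicates. Its summit at -613 lies at -62 from C27F2.9, a gene on the same strand that overlaps vps-22. vps-25 had 86.6 at -7, with 37.6 and 51.9, shared with uba-2, a SUMO-activating enzyme gene, at -306. vps-36 had 65.1 at -894, the farthest of the members, with 17.8 and 41.6. In ESCRT-I, vps-37 had 59.9 at -170, with 22.8 and 50.9, the replicate 1 entry at -37 and the replicate 2 entry at -155. vps-28 had a pooled entry of 30.8.

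No HOPS or CORVET gene had a summit in the optimal set. The count of 0 of 8 has an exact 95% interval that reaches 36.9%, and the rule of 3 counts for a count of 0 allows a share of up to 37.5%. Both limits lie above the 11.7% of all protein-coding genes, so with 8 genes the count cannot be told apart from that background. vps-33.1 came nearest with a pooled signal of 46.9, from 7.49 in replicate 1 and 37.9 in replicate 2. It passed among the 2409 strongest entries of replicate 2 taken alone, which raises the count to 1. vps-18 had 34.02, vps-39 had 23.7 and vps-8 had 9.78, and vps-11, vps-16, vps-41 and vps-33.2 had no entry. The products of vps-11, vps-16, vps-18 and vps-33.1 are the core that HOPS and CORVET share, while vps-39 and vps-41 belong to HOPS and vps-8 to CORVET. vps-33.2, which encodes a relative of VPS-33.1 and is not among the subunits just named, was counted with them. The 8 genes and both limits therefore include a gene whose place in these complexes was not established here.

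Of the other vps- genes, 4 had summits. vps-51, for a subunit of the GARP and EARP tethers, had 112 at -235 on chromosome I, with 48.1 and 67.5 in the replicates. It shares the summit with lin-35, the retinoblastoma-family gene of the DRM complex, at -183. vps-15, the regulatory subunit of the class III PI3-kinase, had 67.6 at -525, with 23.4 and 50.03, shared with hmg-12 at -136. The catalytic subunit gene vps-34 had an entry of 12.6. vps-26, for a retromer subunit, had 55.9 at 15 bp downstream of its start, the one summit of the 23 in an exon of its own gene, with 17.4 and 34.7. The retromer genes vps-35 and vps-29 had 23.2 and 10.2. vps-45, for an SM protein of early endosomes, had 64.7 at -19, with 12.5 in replicate 1 and 51.5 in replicate 2. The GARP and EARP genes vps-52, vps-50, vps-53 and vps-54 had between 11.9 and 31.4, and vps-13, of a lipid transfer protein family, had no entry.

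**Figure D3:**
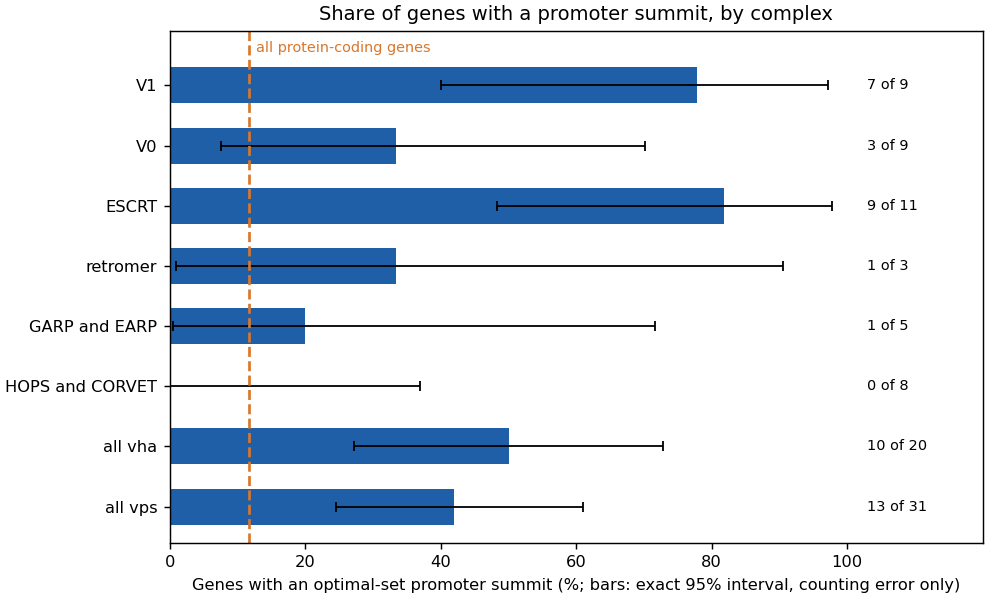
Bars give the percentage of genes of each complex with an optimal-set promoter summit, with exact 95% intervals that cover counting error, and the dashed line marks the 11.7% of all protein-coding genes. All bars except that of HOPS and CORVET lie above the line, among them V1 (7 of 9) and ESCRT (9 of 11). The ESCRT grouping was made after the data were seen. The HOPS and CORVET interval, from 0 of 8, and the V0, retromer, and GARP and EARP intervals include the line. Genes are not replicates, so the intervals are no test against the line.

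Most members with a summit ranked high in both replicates, 16 of 23, by the highest entry in the window. The 23 were taken from the list pooled from these replicates, so high ranks in each were partly built in. Such counts were not made over all protein-coding genes with a summit. At vha-17 and vps-37 the replicate 1 entry lay at -357 and -37, away from the pooled summits at -520 and -170. Of the 10 vha- genes with a summit, 9 were among the 2409 strongest entries of replicate 1 and 9 among those of replicate 2. vha-10 was the exception in replicate 1, at rank 3274, and vha-16 in replicate 2, at rank 2530. Of the 13 vps- genes, 8 were among the strongest of replicate 1 and all 13 among those of replicate 2. The 5 missing from replicate 1 were vps-4, vps-24, vps-26, vps-36 and vps-45, at ranks from 2484 to 7348. With replicate 1 taken alone the vps- count therefore dropped from 13 to 8, and with replicate 2 alone it was 15, since vps-20 and vps-33.1 entered. The share of all protein-coding genes was 10.9% with replicate 1 alone and 11.8% with replicate 2 alone. Signal was higher in replicate 2 at 21 of the 23 genes. It was also higher at 2058 of the 2299 protein-coding genes with an optimal-set summit and an entry in both replicate lists. The median log2 ratio was 0.79 for the members and 0.69 for those 2299 genes. Among the 23, vha-15 and vha-16 were the exceptions, both with a log2 ratio of -0.38, and vps-45 had the largest ratio at 2.04.

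**Figure D4:**
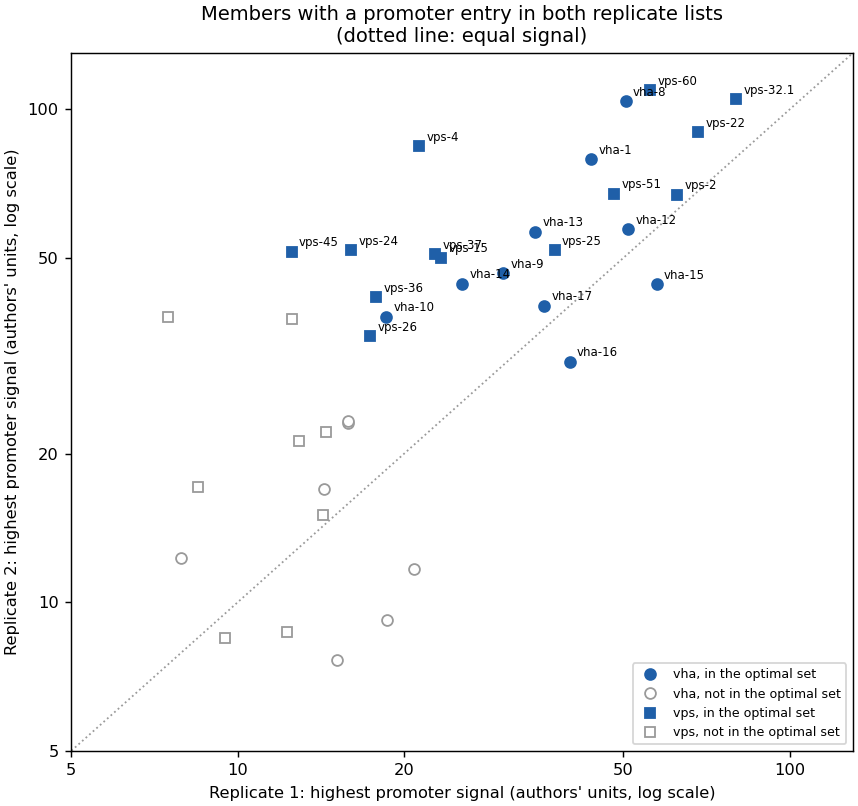
Each point is a member with a promoter entry in both replicate lists, with the signal in replicate 1 against that in replicate 2 on log axes, circles for vha- and squares for vps- genes. Filled points are in the optimal set. Of the filled points, 21 lie above the dotted line of equal signal with vps-45 and vps-4 farthest from it, and vha-15 and vha-16 lie below it. Signal was also higher in replicate 2 at 2058 of the 2299 protein-coding genes with an optimal-set summit and an entry in both lists.

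The summits lay mostly upstream and between genes. Of the 23, 22 were upstream of the member's start, beside 2244 of the 2331 protein-coding genes with a summit. The window itself reaches 1000 bp upstream and 200 bp downstream. The median position was -388 for vha- and -261 for vps- genes, beside -235 over all genes with a summit. The vha- summits kept to the range from -561 to -172, while those of vps- genes ran from -894 to 15. Between protein-coding genes lay 20 of the 23, a count that was not made over the whole optimal set. A further promoter window held the summit at 3 of 10 vha- genes and 7 of 13 vps- genes, 43.5% of the members beside 57.7% of all genes with a summit. When each summit was counted for the nearest start, 16 of the 51 genes had one, beside 8.17% of all genes, and the vps- count dropped from 13 to 8. In windows reaching 500 bp upstream and 100 bp downstream 17 had one, beside 9.52%. The genes that lost their summit to a nearer start were vha-8, vha-17, vps-2, vps-15, vps-22, vps-32.1 and vps-51, which include the strongest member of each prefix.

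**Figure D5:**
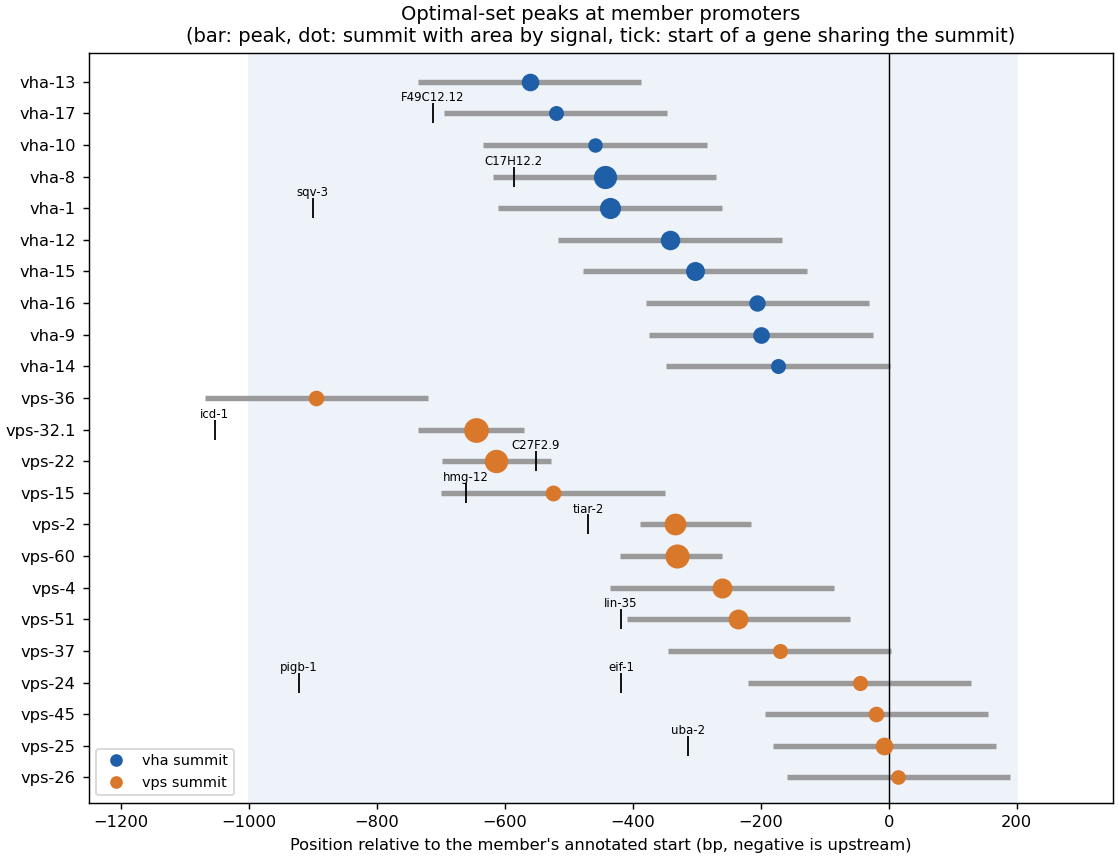
For each of the 23 members, the grey bar is the optimal-set peak and the dot its summit, relative to the annotated start at 0 in bp, blue for vha- and orange for vps- genes. Dot area follows signal and black ticks mark the starts of other genes whose windows hold the summit. The vha- summits lie between -561 and -172, and those of vps-24, vps-25, vps-26 and vps-45 lie within 45 bp of the start.

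Many worm genes are transcribed in runs from the promoter of the first gene, and the start of a later gene need not then have a promoter nearby. The files hold no transcripts, so spacing was used: a gene was counted as close downstream when it starts less than 500 bp after the end of a gene on the same strand. This holds for 15 of the 51 members (29.4%) and for 17.3% of protein-coding genes. The measure was chosen after the data were seen. Of the 15, 4 had their own summit (vha-9, vha-10, vha-13 and vps-26), beside 8.79% of all such genes. Among the 11 without, the first gene of the run had an optimal-set summit in 6 cases, beside 23.8% of all such genes without their own. These were vha-2 behind vha-1 (127), vha-20 behind sym-4 (116), vps-8 behind tag-335 (64.1), vps-11 behind npp-19 (118), vps-16 behind txdc-9 (146) and vps-54 behind erh-1 (98.7). Of the 8 HOPS and CORVET genes, 4 were close downstream, and the first gene had a summit for 3 of them, vps-8, vps-11 and vps-16. The run of vps-41, like those of vps-28, vps-29, vps-34 and vps-35, had none at its first gene.

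Genes of the pathway with other names were read from lists that share the function and not the prefix. Their 48 annotated members had 14 summits (29.2%, beside 11.7% of all protein-coding genes). The ESCRT and associated genes with other names had 3 of 8, at mvb-12 (79.7), stam-1 (55.1) and alx-1 (54.8), while did-2 had a pooled entry of 36.5 and the others none. The mvb-12 summit is shared with C06A6.4 and the alx-1 summit with mog-1. Partners in retromer transport, fusion and lipid signalling had 7 of 11. Among them, rab-7, the late endosomal GTPase that recruits HOPS, had 152, ccz-1, part of the factor that activates it, had 121, and rab-5 of early endosomes had 85.8. The rab-7 summit lies at -811 and is shared with mex-1 and W03C9.5, that of ccz-1 with tag-65 and that of rab-5 with nmat-2. The genes of this list without a summit were sand-1, bec-1 and eipr-1, with pooled entries of 13.8, 19.8 and 13.7, and snx-6, with no entry. Genes of lysosomal membrane proteins, channels and enzymes had 1 of 18, scav-3 with 66.4, whose summit is shared with Y49E10.21. The cathepsin genes cpl-1, asp-1, asp-3 and asp-4 had pooled entries of at most 37.01 or none. The lysosomal regulators had 2 of 7, ragc-1 (137), which shares its summit with Y24F12A.1, and lmtr-3 (118), which shares its summit with atp-5. hlh-30, the worm relative of TFEB, had a pooled entry of 13.1. The assembly factor gene rbc-2 had 194, at a summit shared with ndua-8 and Y54F10AM.15, and rbc-1 had no entry. Neither unc-32 nor spe-5 had a summit in the optimal set.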

How the data were processed

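ChIP-seq peak lists of 1 group with 2 biological replicates were used. Signal is the authors' deposited value in column 7, in their caller's units. Which caller, aligner and settings were used is not stated in the labels or file notes read. The ce11 optimal set, pooled list and replicate lists were read. The ce10 lists were not used here. Peak ends fit the WBcel235 chromosomes, and gene models were those of Ensembl release 115. Coordinates are 1-based. A summit (start plus offset) was assigned to every protein-coding gene whose window held it, and this assignment was tested on simulated summits. Coding sequences were translated from the genome and aligned globally (BLOSUM62, gap penalties 11 and 1). Intervals are Clopper-Pearson at 95% and cover counting error. Read depth is unknown.

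The members, lists and groupings were chosen with earlier results of these data known. Every member could be named, with genes that share its summit and the listed pathway genes. The ESCRT and the HOPS and CORVET counts, the gene runs and 4 of the sequence searches (3 sets of 6 letters and the run of 10) were added after values were seen. No test was run. Alternatives were 2 other peak sets, 2 other windows, the nearest start, every transcript start, peak overlap by 1 bp and each replicate alone. Python 3.11.15, pandas 2.3.3, scipy 1.17.1 and Biopython 1.88 were used.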

Additional observations from a re-analysis of the deposited data

How the results depend on the processing

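Of the 51 genes, between 14 and 29 had a summit across the 9 alternatives, beside 23 in the reported setting. In the stricter set, the 1204 peaks of highest signal, the count was 14 for all members, 7 for vps- genes and 1420 for protein-coding genes. In the wider set of 4818 pooled entries, HOPS and CORVET had 2 (vps-18 and vps-33.1) and protein-coding genes 3533. With windows from 2000 bp upstream to 500 bp downstream, V0 had 5, since vha-4 entered, and vha-2 through the vha-1 summit. HOPS and CORVET then had 1, vps-16, beside 14.7% of all protein-coding genes. With the nearest start alone, vps- genes had 8. Leaving out a replicate gave 17 to 24 members, 2 to 3 for V0, 6 to 7 for V1, 8 to 15 for vps-, 6 to 10 for ESCRT, 0 to 1 for HOPS and CORVET, and 2177 to 2358 protein-coding genes. The median signal of members with a summit was 86.6 in windows from 500 bp upstream to 100 bp downstream, 90.4 in the wide windows and 74.0 with the nearest start. Using every transcript start or peak overlap gave the same 23 genes. In each of the 9 alternatives the V1 count was above the V0 count, and the share of members above that of all protein-coding genes. The causes of these shifts beyond the choice of peaks and windows were not tested. Depth is unknown, and a pooled signal under 48.5 does not show that a peak is absent. No paired analysis was possible because the samples form 1 group.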
